A study of Mus musculus with 2 samples.

Results

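The following 8 small nucleolar RNAs (snoRNAs), which carry only a predicted-gene symbol, were followed in RNA isolated with telomeric chromatin: Gm26448, Gm23946, Gm24119, Gm22988, Gm23262, Gm25835, Gm22486 and Gm24494. They were picked by these 8 gene symbols, with their read counts and ratios in the same libraries already known, so their values are a description and no test was made on them. Each symbol stands for 1 transcript, and the 8 belong to 24117 gene symbols and 48876 transcripts in all. The mouse hematopoietic line Ba/F3 (strain C3H) stably expressed either 3xFN-Tel-TAL, a FLAG-tagged TAL protein that binds telomere repeats, or 3xFNLDD, a FLAG-tagged LexA protein used as negative control. Formaldehyde-fixed, sonicated chromatin was pulled down with anti-FLAG M2 antibody, a procedure named enChIP, and the RNA in the isolate was sequenced. There was 1 library for each condition, so no difference has a replicate check and no p-value is given. A higher level in the isolate and a higher level in the cells cannot be told apart, since RNA from before the pulldown was not analysed here.

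snoRNAs are short nuclear RNAs, most of which are cut out of the introns of other genes after splicing. H/ACA snoRNAs fold into hairpins ahead of a conserved ACA trinucleotide, bind dyskerin with its partners and guide pseudouridylation. C/D snoRNAs are bounded by a C box and a D box, bind fibrillarin with its partners and guide ribose methylation. Telomerase RNA carries an H/ACA domain and shares dyskerin with the H/ACA snoRNAs. A "Gm" symbol is a database placeholder and says nothing of function, whereas an older annotation gave these genes the names of known families.

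The GENCODE M1 annotation (build NCBIM37) typed all 8 transcripts as snoRNA. It was matched by the same Ensembl transcript IDs, so this is no independent check of the label. Its gene names placed 4 of them in H/ACA families: Gm26448 as SNORA73 (also called U17, which acts in pre-rRNA cleavage), Gm23946 as SNORA74, Gm24119 as SNORA53 and Gm22988 as SNORA48. The other 4 had C/D names: Gm23262 as snoU97, Gm25835 as snoU6-77, Gm22486 as SNORD94 and Gm24494 as SNORD45. The last digits of snoU6-77 name a position in the U6 spliceosomal RNA, the target of that guide. Annotated lengths ran from 81 nt for Gm24494 to 246 nt for Gm24119. RefSeq held 4 of the symbols as snoRNA, each with the same length as in GENCODE M1.

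The 4 sequences here are shown 5′ to 3′ as DNA because they show the 2 box types and because Gm22988 and Gm25835 come from 1 host gene. Capitals mark ACA within the last 8 nt of the first pair, and GATG (the core of the C box) within the first 15 nt and CTGA (the D box) within the last 12 nt of the second pair, of which Gm23262 has no CTGA there. They were read from the NCBIM37 genome at the annotated positions: Gm24119 at chr10:90581036-90581281, Gm22988 at chr11:69483137-69483280, Gm23262 at chr7:118219574-118219741 and Gm25835 at chr11:69482354-69482497, all on the reverse strand.
Gm24119: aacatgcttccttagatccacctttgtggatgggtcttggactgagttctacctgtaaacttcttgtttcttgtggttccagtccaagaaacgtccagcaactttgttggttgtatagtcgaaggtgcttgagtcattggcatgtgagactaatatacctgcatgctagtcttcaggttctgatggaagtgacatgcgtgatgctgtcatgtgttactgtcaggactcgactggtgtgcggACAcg
Gm22988: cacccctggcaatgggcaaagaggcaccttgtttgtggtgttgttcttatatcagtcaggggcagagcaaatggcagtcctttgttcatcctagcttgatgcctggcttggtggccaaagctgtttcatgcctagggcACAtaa
Gm23262: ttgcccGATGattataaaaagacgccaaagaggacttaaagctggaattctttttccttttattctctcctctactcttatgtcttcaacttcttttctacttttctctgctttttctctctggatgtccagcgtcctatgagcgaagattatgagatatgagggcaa
Gm25835: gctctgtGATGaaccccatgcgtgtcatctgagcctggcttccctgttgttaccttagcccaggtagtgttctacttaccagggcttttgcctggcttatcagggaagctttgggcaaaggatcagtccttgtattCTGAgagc

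ACA stood within the last 8 nt of all 4 RNAs with H/ACA names and of no RNA with a C/D name, compared with 58.6% of the 365 listed snoRNAs with an annotated sequence. At the stricter position, exactly 3 nt before the 3′ end, it stood in Gm26448 and Gm22988 only (37.8% of the listed snoRNAs). GATG stood within the first 15 nt of all 4 RNAs with C/D names and of none with an H/ACA name, compared with 20.3% of the listed snoRNAs. CTGA was found within the last 12 nt of Gm25835, Gm22486 and Gm24494 (25.2% of the listed snoRNAs), and the full letters TGATGA within the first 15 nt of Gm25835 and Gm22486 (13.4%). In Gm23262, Gm25835 and Gm22486 the first 5 nt could pair with the last 5 nt, as in 5.48% of the listed snoRNAs. Neither TTAGGG nor CCCTAA, the telomere repeat on its 2 strands, was in any of the 8 sequences, and 3.56% of the listed snoRNAs held 1 of these words. All motifs were sought on the RNA strand. No sequence could be aligned to another of the 8 by BLAST, so none of the 8 shares a stretch of sequence with another that this search could find.

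Of the 8 RNAs, 5 were about 3 to 4 times as abundant in the 3xFN-Tel-TAL isolate as in the control, and these included all 4 H/ACA snoRNAs. Gm25835 was 1.4-fold higher, Gm22486 lay near it with few reads, and Gm24494 was the one RNA with fewer reads in the 3xFN-Tel-TAL library. Levels are in RPM, the reads of an RNA scaled to an equal library total, and the log2 ratio is that of the RPM in 3xFN-Tel-TAL to the RPM in 3xFNLDD. Bracketed intervals are at the 95% level and were derived by the exact Clopper-Pearson method from the share of each RNA's reads found in 3xFN-Tel-TAL. They cover counting error only: amplified reads carried no molecular identifiers, so several may stem from 1 molecule. The libraries held 7206183 (3xFNLDD) and 9774844 (3xFN-Tel-TAL) reads.

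Gm26448, the SNORA73 RNA, was the most deeply read of the 8. The control library held 271 of its reads (37.6 RPM) and the 3xFN-Tel-TAL library 1192 (122 RPM), giving a log2 ratio of 1.70 (interval 1.51 to 1.89). Among all listed transcripts it ranked 108 by reads, and among the listed annotated snoRNAs it ranked 5. It held 42.6% of the reads of the 8 RNAs in the control and 50.9% in the 3xFN-Tel-TAL library.

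The other 3 H/ACA RNAs were read less deeply. Gm23946, named as SNORA74, was counted 19 times in the control (2.64 RPM) and 103 times in the 3xFN-Tel-TAL library (10.5 RPM), giving a log2 ratio of 2.0 (interval 1.28 to 2.79), the highest point value of the 8. Gm24119, named as SNORA53 and the longest of the 8, had 31 reads (4.30 RPM) and 152 reads (15.6 RPM), giving a log2 ratio of 1.85 (interval 1.29 to 2.46). Gm22988, named as SNORA48, had 27 reads (3.75 RPM) and 104 reads (10.6 RPM), giving a log2 ratio of 1.51 (interval 0.88 to 2.17). The 3 RNAs were higher in 3xFN-Tel-TAL by point value and by lower bound, and their intervals overlapped with each other and with that of Gm26448, so no order among the 4 is resolved. Together the 4 H/ACA RNAs had 348 and 1551 reads, giving a log2 ratio of 1.72 (interval 1.55 to 1.89). This sum rests mostly on Gm26448, which had 271 and 1192 of these reads.

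The C/D RNAs were split. Gm23262, named as snoU97, was counted 94 times in the control (13.0 RPM) and 434 times in the 3xFN-Tel-TAL library (44.4 RPM), giving a log2 ratio of 1.77 (interval 1.44 to 2.10), in the range of the H/ACA RNAs. Gm25835, the snoU6-77 RNA, had 168 reads (23.3 RPM) and 320 reads (32.7 RPM), giving a log2 ratio of 0.49 (interval 0.22 to 0.77). Its interval lay below those of Gm23262 and of all 4 H/ACA RNAs. Scaling by the trimmed mean of M values (TMM) lowered every log2 ratio by 0.37 and left Gm25835 at 0.12, below 1.4-fold.

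The remaining C/D RNAs had few reads. Gm22486, named as SNORD94, had 14 reads (1.94 RPM) and 26 reads (2.66 RPM), giving a log2 ratio of 0.45 (interval -0.54 to 1.5). Gm24494, named as SNORD45 and the shortest of the 8, had 12 reads (1.67 RPM) and 10 reads (1.02 RPM), giving a log2 ratio of -0.70 (interval -2.07 to 0.63). Both intervals held a ratio of 1, so a difference between the libraries was not detectable at this depth. The interval of Gm24494 nevertheless lay below those of Gm23262 and of all 4 H/ACA RNAs, while that of Gm22486 lay below Gm26448 alone. The 4 C/D RNAs together had 288 and 790 reads, giving a log2 ratio of 1.02 (interval 0.82 to 1.22), but this sum rests on Gm23262 and Gm25835. Of the 28 pairs among the 8 RNAs, 11 had intervals that did not overlap, and each of these pairs included Gm25835, Gm22486 or Gm24494. The 8 were picked with these ratios known, and no such share was computed for pairs of other RNAs. Nothing is therefore read from the number of pairs.

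**Figure D1:**
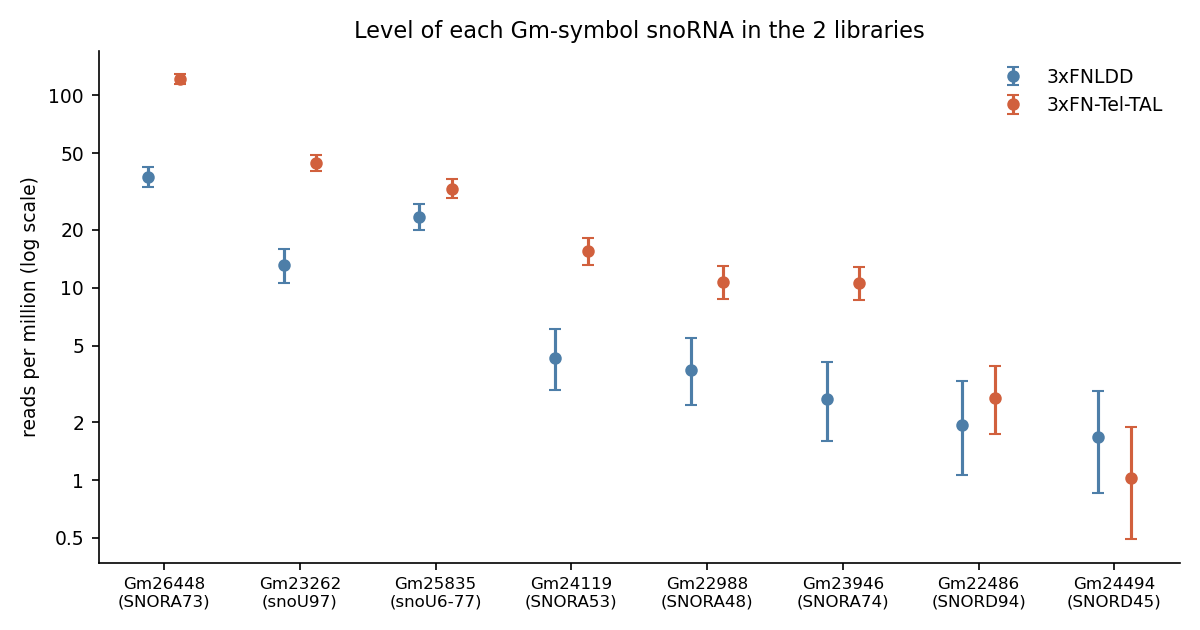
Level of each snoRNA in RPM (log axis) in the 3xFNLDD and 3xFN-Tel-TAL libraries, 1 library each, with exact 95% Poisson intervals as bars and the annotated name in brackets. Gm26448 is at 37.6 and 122 RPM, and the intervals of Gm22486 and of Gm24494 overlap between the libraries.

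**Figure D2:**
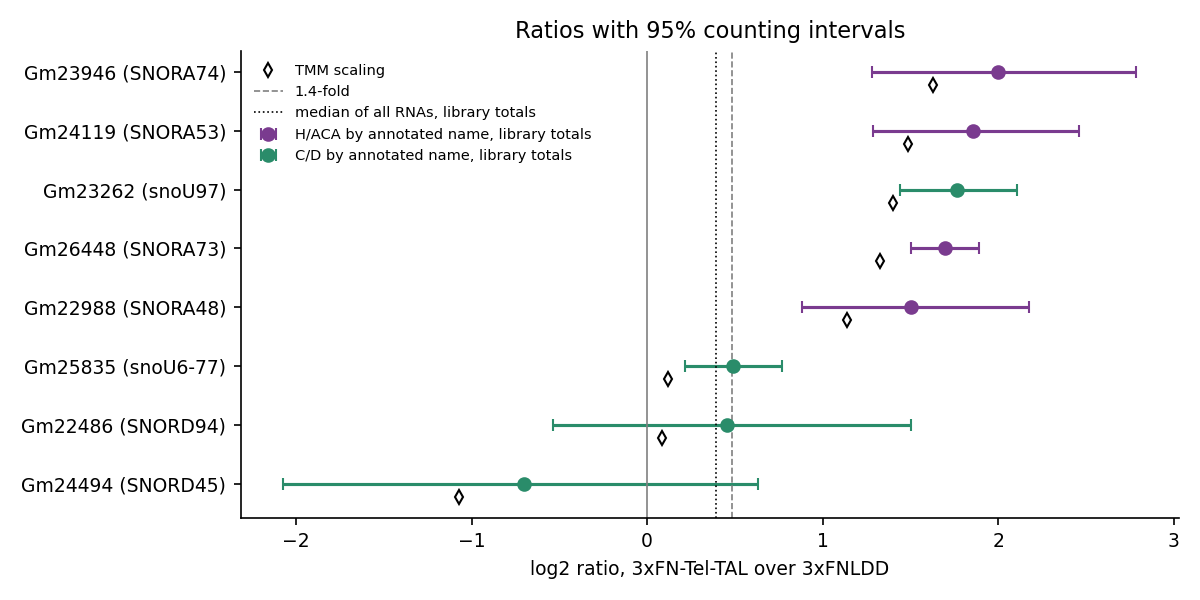
Log2 ratio of 3xFN-Tel-TAL to 3xFNLDD for each snoRNA (circles, with 95% counting intervals as bars) and after TMM scaling (diamonds, point values), coloured by box class. The 5 upper RNAs have lower bounds above 1.4-fold by library totals, and Gm24494 is the one RNA below 0.

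In number, 6 of the 8 RNAs had an RPM ratio above 1.4, whereas 44.2% of all RNAs counted at least 20 times over both libraries (16468) were above it. Gm25835 lay just inside this threshold and Gm22486 just outside it. The study set 1.4-fold on read counts, and with counts not scaled to library totals 7 of the 8 and 70.1% of all RNAs were above it. Since the 8 were picked with these ratios known, nothing is read from these counts. The lower bound was above 1.4-fold for 5 of the 8 and for 9.9% of all RNAs. It was so for 21 of 68 other annotated snoRNAs with at least 20 reads. A lower bound depends on depth, and median reads were 157 for the 8, 64 for all RNAs and 56 for those other snoRNAs. The ratio was above 2 for the same 5 of the 8, compared with 18.8% of all RNAs. Gm24494 alone was below 1/1.4-fold (11.1% of all RNAs). With TMM scaling 5 of the 8 and 24.6% of all RNAs were above 1.4-fold. The median log2 ratio of the 8 was 1.60, and that of all RNAs 0.39.

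Leaving out Gm26448, the RNA with the most reads, the 7 others had 365 and 1149 reads together and a log2 ratio of 1.21 (interval 1.04 to 1.39), compared with 1.44 (interval 1.31 to 1.57) for all 8. In RPM, the 8 RNAs summed to 88.3 in the control, against 239 with 3xFN-Tel-TAL.

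All 8 RNAs lie inside protein-coding genes, on the same strand as the host and within an intron of the host's most deeply read protein-coding transcript. Gm26448 is in intron 3 of Rpsa, which encodes a protein of the small ribosomal subunit, at chr9:120038469-120038671 on the forward strand. Gm23946 is in intron 4 of Timm23, an import channel protein of the inner mitochondrial membrane, at chr14:33005040-33005236. Gm24119 is in intron 5 of Slc25a3, the mitochondrial phosphate carrier, 74 nt ahead of the next exon. Gm23262 is in intron 13 of Eif4g2, a translation factor of the eIF4G family. Gm22486 is in intron 21 of Ptcd3, a mitochondrial ribosome protein, at chr6:71832551-71832687, and Gm24494 in intron 2 of Rabggtb, a subunit of the enzyme that prenylates Rab proteins, at chr3:153574574-153574654. These 5 genes after Rpsa are on the reverse strand.

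The helicase gene Eif4a1, whose product unwinds mRNA at the start of translation, holds both Gm22988 in intron 4 and Gm25835 in intron 5, 639 nt apart on the reverse strand. The 2 RNAs have the same length of 144 nt and the intervals of their ratios did not overlap, with log2 ratios of 1.51 for Gm22988 and 0.49 for Gm25835. That separation was lost when the near-identical copies of Gm22988 were added to it (log2 ratio 1.02, interval 0.60 to 1.47). Per kb of transcript, Gm22988 stood at 26.0 and Gm25835 at 162 RPM in the control, and with 3xFN-Tel-TAL at 73.9 and 227 RPM. Gm25835 was thus the more abundant of the pair in both libraries. A further snoRNA of the gene, Gm24029 (named as SNORA67), had 6 and 17 reads, giving a log2 ratio of 1.06 (interval -0.35 to 2.69), which overlaps both.

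Host genes were compared with the snoRNAs by the summed reads of all their listed transcripts. In 4 cases the snoRNA had a ratio above that of its host with no overlap of the intervals: Gm26448, Gm23946, Gm24119 and Gm23262. The snoRNAs described here were picked with their ratios known, and other snoRNAs were not set against their hosts. Nothing is therefore read from this count. Rpsa was read 457 times in the control and 781 times with 3xFN-Tel-TAL, giving a log2 ratio of 0.33 (interval 0.16 to 0.50), so Gm26448 exceeded it by 1.36 on the log2 scale. Eif4g2 had 316 and 565 reads, giving a log2 ratio of 0.40 (interval 0.20 to 0.60), 1.37 below Gm23262. These 2 hosts lay near the median of all RNAs, 0.39.

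Slc25a3 had a higher ratio than these hosts, with 129 and 330 reads and a log2 ratio of 0.92 (interval 0.62 to 1.22), and Gm24119 exceeded it by 0.94. Timm23 had 38 and 75 reads, giving a log2 ratio of 0.54 (interval -0.041 to 1.14), 1.46 below Gm23946. One Timm23 transcript, ENSMUST00000168139, shares 104 nt of exon with Gm23946 and had 0 and 15 reads. The other 3 Timm23 transcripts together had 38 and 60 reads, a log2 ratio of 0.22.

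In Eif4a1 the snoRNAs and the host were not resolved. The gene had 155 and 373 reads, giving a log2 ratio of 0.83 (interval 0.55 to 1.11), which overlapped with the intervals of Gm22988 and of Gm25835. The retained-intron transcript ENSMUST00000123995, with 102 and 215 reads, covers the whole of Gm22988 in its exons, so reads of the 2 RNAs could have been exchanged. The other 6 Eif4a1 transcripts together had 53 and 158 reads and a log2 ratio of 1.14, nearer to that of Gm22988 than the whole gene. Ptcd3 (24 and 44 reads, log2 ratio 0.43, interval -0.31 to 1.22) and Rabggtb (37 and 65 reads, log2 ratio 0.37, interval -0.23 to 1.0) overlapped with Gm22486 and Gm24494.

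Per kb, every one of the 8 RNAs stood above the most deeply read protein-coding transcript of its host in both libraries. In 3xFNLDD the quotient ran from 3.14 for Gm23946 over Timm23 to 95.4 for Gm25835 over Eif4a1. In 3xFN-Tel-TAL it ran from 2.75 for Gm24494 over Rabggtb to 78.8 for Gm25835. The quotients depend on the transcript chosen. In Eif4a1 the protein-coding transcript had 23 and 53 reads, against 102 and 215 for the retained-intron transcript ENSMUST00000123995. In Slc25a3 it had 31 and 81 reads, against 92 and 227 for a retained-intron transcript. Since each snoRNA lies on the strand of its host, reads of intronic pre-mRNA and of the snoRNA at the same position cannot be told apart.

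**Figure D3:**
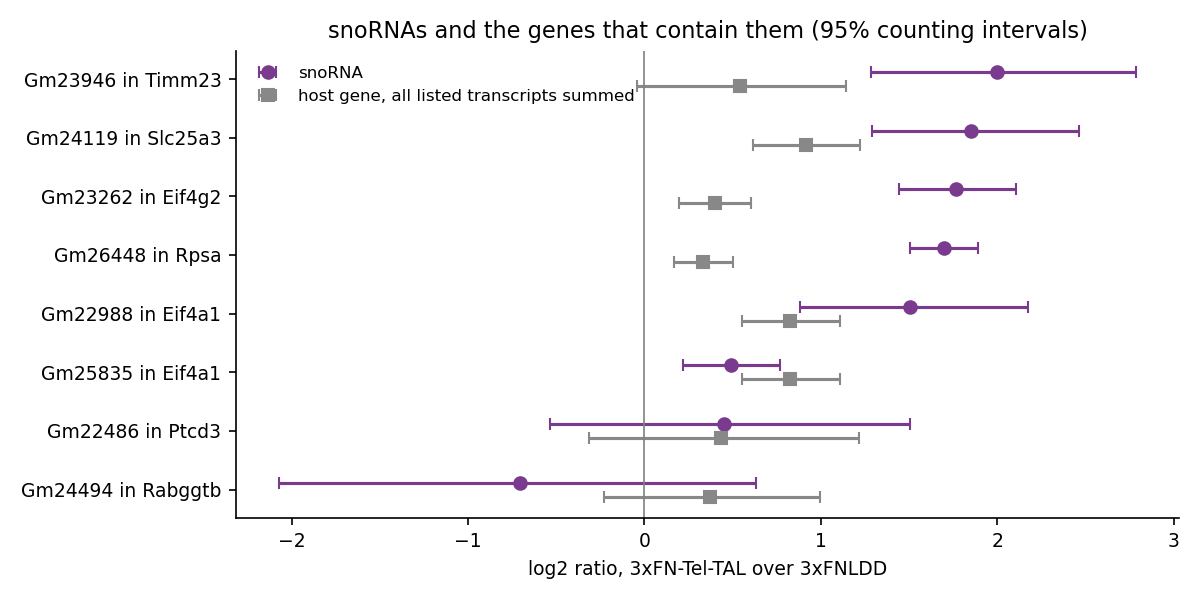
Log2 ratio of 3xFN-Tel-TAL to 3xFNLDD for each snoRNA (circles) and for the gene that contains it (squares, all listed transcripts summed), with 95% counting intervals. The intervals of Gm23946, Gm24119, Gm23262 and Gm26448 lie above those of their hosts, and the other 4 pairs overlap.

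Of the 4 H/ACA RNAs, 3 have listed relatives of the same annotated family, and these did not share 1 ratio. In the SNORA73 family, Snora73b had 488 and 1417 reads, giving a log2 ratio of 1.10 (interval 0.95 to 1.25). Snora73a had 356 and 906 reads, giving a log2 ratio of 0.91 (interval 0.73 to 1.09). Both intervals lay below that of Gm26448 (1.51 to 1.89). In a global alignment Gm26448 and Snora73b were identical at 180 of 203 aligned positions, 88.7%, with 2 gap positions, and Gm26448 and Snora73a at 90.1% of aligned positions. These shares leave out gap positions. By BLAST, which counts them, identity was 89.1% for Snora73b and 88.2% for Snora73a, and no copy of Gm26448 reached 90% over 90% of its length elsewhere in NCBIM37.

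The pair is shown because RNAs this similar can exchange reads. Capitals mark bases that differ between them or stand opposite a gap in the alignment.
Gm26448: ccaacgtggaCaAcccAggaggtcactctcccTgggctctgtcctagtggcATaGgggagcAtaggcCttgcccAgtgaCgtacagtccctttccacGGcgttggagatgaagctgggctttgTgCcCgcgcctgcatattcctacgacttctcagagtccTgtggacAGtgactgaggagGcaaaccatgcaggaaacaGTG
Snora73b: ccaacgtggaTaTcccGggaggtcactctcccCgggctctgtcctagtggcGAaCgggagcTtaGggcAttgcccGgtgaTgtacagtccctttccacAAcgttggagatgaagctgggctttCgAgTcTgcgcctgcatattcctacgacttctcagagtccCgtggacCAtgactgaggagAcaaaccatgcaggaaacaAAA

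In the SNORA74 family, Snora74a had 60 and 183 reads, giving a log2 ratio of 1.17 (interval 0.74 to 1.61), which overlapped with that of Gm23946. The row Mir1949, which GENCODE M1 names as SNORA74, had 43 and 73 reads and a log2 ratio of 0.32 (interval -0.24 to 0.90), below that of Gm23946 without overlap. Gm24119, Gm23262, Gm25835 and Gm22486 had no listed relative.

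Gm22988 differs from the other 7 in its number of copies. The annotation lists 15 further SNORA48 genes among these transcripts, and the genome holds 16 further copies with at least 90% identity over 90% of the length, 2 of them with at least 95%. The 15 relatives had 49 and 82 reads together, giving a log2 ratio of 0.30 (interval -0.22 to 0.84), below that of Gm22988 without overlap. When the 9 listed copies with at least 90% identity were added to Gm22988, the sum was 62 and 171 reads, giving a log2 ratio of 1.02 (interval 0.60 to 1.47). How reads that match several copies were assigned is not given in the sources used here, so the value of Gm22988 is uncertain. With the copies added its interval overlapped with those of Gm25835 and Gm24494 and lay below that of Gm26448. For the other 7 RNAs no such copy was found in the genome.

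Gm24494 has 2 listed relatives, Snord45b and Snord45c, which lie with it in Rabggtb. They had 3 and 2 reads and 3 and 1 reads, too few for a ratio. In Rpsa, Gm24044 (named as SNORA62) had 18 and 58 reads, giving a log2 ratio of 1.25 (interval 0.46 to 2.10), which overlapped with that of Gm26448.

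Other snoRNAs give the frame for these values. The files list 365 transcripts that the annotation types as snoRNA, of which 273 have a Gm symbol. With 20 or more reads over the 2 libraries there were 76 snoRNAs, the 8 described here and 68 others. The 68 others had a median log2 ratio of 0.90, and 49 of them were above 1.4-fold. Of these, the 40 with a Gm symbol had a median of 0.75 with 27 above 1.4-fold, from Gm23925 (SNORA71, -0.25) to Gm23245 (SNORA22, 2.95, from 2 and 21 reads). The 14 with a Snora symbol had a median of 0.84, from Snora33 at -0.59 to Snora23 at 1.34.

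The point values of Gm23946, Gm24119, Gm26448 and Gm22988 were all above that of Snora23, the highest Snora symbol, whose interval (0.95 to 1.74) overlapped with all 4. They were not the highest with a SNORA name. The 29 other Gm-symbol snoRNAs so named had a median of 0.62 and reached 2.95 (Gm23245, 2 and 21 reads). The 7 with a Snord symbol had a median of 1.56, from Snord22 at 0.44 to Snord55 at 3.08 (2 and 23 reads). Gm25835 was near Snord22, and Gm23262 was between the median and the highest. The 4 with a Scarna symbol had a median of 1.28, from Scarna2 at 0.59 to Scarna6 at 2.52, and the 2 with an Rnu3 symbol were at 2.05 and 2.09.

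**Figure D4:**
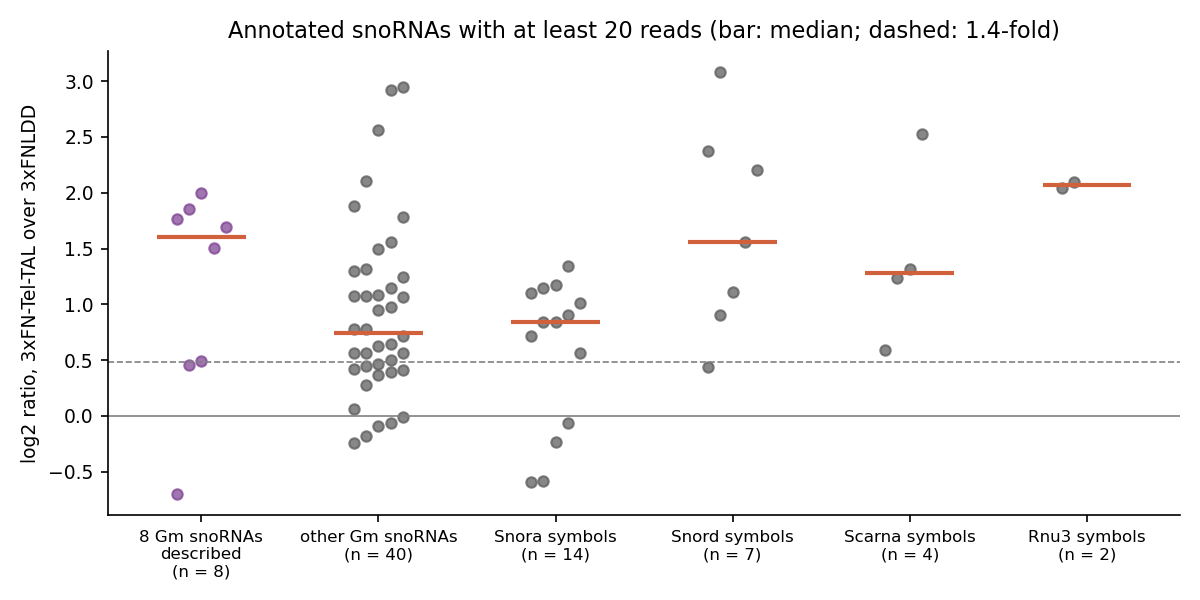
Log2 ratio of 3xFN-Tel-TAL to 3xFNLDD for annotated snoRNAs with at least 20 reads, by symbol class (points, 1 per RNA, spread sideways for sight only), with the class median as a bar and 1.4-fold as a dashed line. The 8 described RNAs have 5 points between 1.51 and 2.0 and 3 points at 0.49, 0.45 and -0.70. The row Mir1949 belongs to no class here and is left out.

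Length moved with the ratio. Among the 8 RNAs the 4 longest, Gm24119, Gm26448, Gm23946 and Gm23262, had the 4 highest log2 ratios, and the shortest, Gm24494, the lowest. Spearman's rho between annotated length and log2 ratio was 0.87 across the 8 RNAs and 0.41 across the 68 other snoRNAs, given as a description because the points share the same 2 libraries and longer snoRNAs also had more reads (rho 0.65 among the 8 and 0.43 among the 68). Of the others, the 40 snoRNAs of up to 140 nt had a median log2 ratio of 0.67, and the 28 above 140 nt had 1.24. Box class ran with length among the 8, at 144 to 246 nt for H/ACA and 81 to 168 nt for C/D. The part of length in the ratios of the 8 was not tested.

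Other short RNAs had a lower median ratio, with a wide spread. The 133 RNAs of other types with 81 to 246 nt and at least 20 reads had a median log2 ratio of 0.24. They ran from -2.46 to 2.06, and 52 of them were above 1.4-fold. Among them the 25 small nuclear RNAs were at 0.23 and the 63 microRNA precursors at 0.28.

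**Figure D5:**
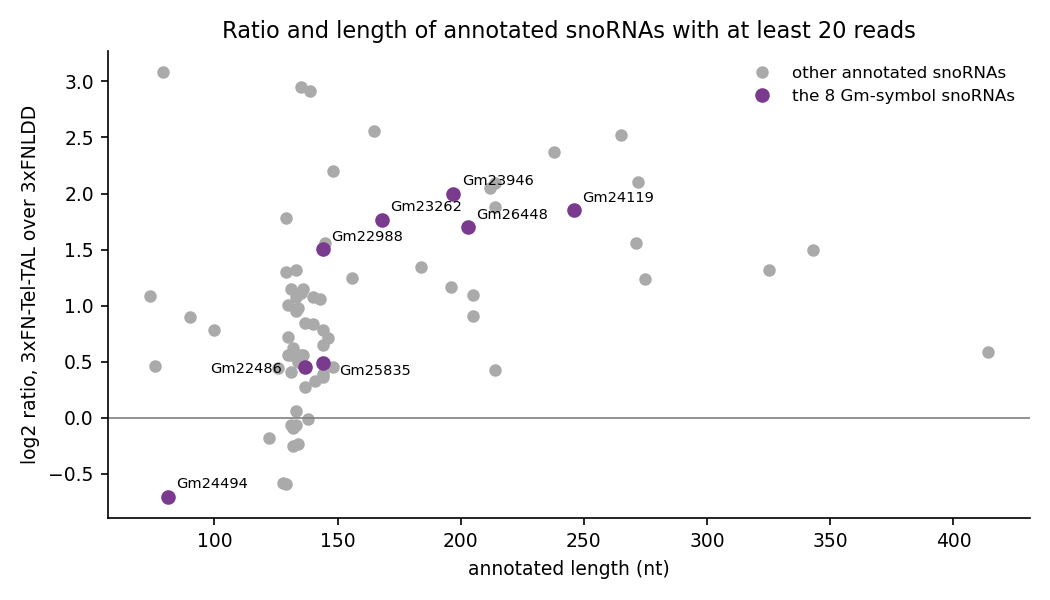
Annotated length in nt against the log2 ratio of 3xFN-Tel-TAL to 3xFNLDD for the 76 annotated snoRNAs with at least 20 reads, with the 8 described RNAs named. The 4 longest of the 8 lie between 1.70 and 2.0, and Gm24494 with 81 nt lies at -0.70.

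Genes of the snoRNP core proteins and of factors that assemble the particles had a lower median ratio than all genes. They were 4 H/ACA core genes, 4 C/D core genes and 6 assembly factor genes. Of 14 genes, with reads summed over transcripts, 4 were above 1.4-fold and none below 1/1.4-fold, and no lower bound was above 1.4-fold. Of all 12517 genes with at least 20 reads, 41.1% were above 1.4-fold and 1435 genes were below 1/1.4-fold. The share of genes with a lower bound above 1.4-fold was not computed, and among single transcripts it was 9.9%. With 14 genes, nothing is read from these counts. The median of the 14 was 0.14, and that of all genes 0.37. By group it was 0.32 for H/ACA core, 0.20 for C/D core and 0.13 for assembly factors. Dkc1, which encodes the pseudouridine synthase dyskerin, had 102 and 196 reads, giving a log2 ratio of 0.50 (interval 0.15 to 0.86). Nop10 and Nop58, a core protein of H/ACA and of C/D particles, were both at 0.98, from 6 and 16 reads and from 33 and 88 reads. Nufip1, an assembly factor, was at 0.84. The lowest were Ruvbl1 (assembly factor) at -0.44, Nhp2l1 (C/D core) at -0.37 and Gar1 (H/ACA core) at -0.28. Fbl, the methyltransferase fibrillarin, was at 0.11 with 15 and 22 reads.

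Across the series, 11 RNAs with more than 1% of a library held 84.8% of the 3xFNLDD and 81.1% of the 3xFN-Tel-TAL reads, and the 8 snoRNAs held 0.0175% of all reads. A single read was worth 0.139 RPM in the control and 0.102 RPM with 3xFN-Tel-TAL. The label of the line was checked on the receptor for IL-3, the factor Ba/F3 cells need: Csf2rb had 583 and 1052 reads, Csf2rb2 751 and 849, and Il3ra 17 and 68. Of 9 marker genes chosen for Ba/F3 cells 5 reached 20 reads in both libraries together, as did 12517 of all 24117 genes. The 2 shares are near each other, so the label of the line is not read from this count. Cd79b, Vpreb1, Igll1 and Kit had at most 4 reads in a library. Of 5 markers of other cell types, Alb had no row under that symbol and Hbb-b1 alone reached 20 reads, with 49 and 73.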

How the data were processed

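Raw read counts per Ensembl transcript were deposited by the authors for the 3xFNLDD library and the 3xFN-Tel-TAL library. RPM values, also deposited, are the count scaled to the summed count of the library, and recomputed values differed by at most 4.75e-05 RPM. Per the labels, reads were trimmed with cutadapt and the build was GRCm38 (mm10). The aligner, the annotation release and the handling of multi-mapped reads are not given in the sources used here.

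The files were joined on transcript ID, and samples were grouped by their titles. Log2 ratios and exact intervals were computed in Python 3.11.15 with scipy 1.17.1 and pandas 2.3.3, without a pseudocount. No test was made, since there is 1 library per condition. The 8 RNAs and the gene lists were chosen with earlier results of these data known. GENCODE M1 on NCBIM37 gave the transcript types, positions and sequences and holds 45887 of the 48876 transcripts. Sequences were taken by transcript ID, and no coordinate was moved between builds. Copies were sought with BLAST 2.17.0, and pairs were aligned globally with Biopython 1.88. Relatives of a family were recognized by annotated name or symbol. Alternatives were TMM factors from RNAs of 10 reads or more (R 4.3.3, edgeR 4.0.16), library totals that omit RNAs above 1% of a library, a pseudocount of 1, a threshold of 2, the lower bound in place of the ratio, other minimum counts, and reads summed with copies of at least 90% identity over 50% of the length. TMM values of host genes and ratios of counts not scaled to library totals were added after seeing the data. The interval computation was tested on simulated data. Named RNAs were the 8, their hosts, their relatives, the fixed snoRNP and marker genes and the extremes of each snoRNA class. Gm24029 and Gm24044, which share a host with one of the 8, and ENSMUST00000168139 and ENSMUST00000123995, which overlap one, were named after their values were seen.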

Additional observations from a re-analysis of the deposited data

How the results depend on the processing

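No paired analysis was possible because each condition has 1 library, which also means that none could be left out in turn. All ratios depend on the scaling, since a few RNAs hold most reads: TMM scaling shifted every log2 ratio by -0.37, and totals without the 11 most abundant RNAs by -0.32. With TMM, Gm26448 was at 1.33, Gm23262 at 1.4 and Gm25835 at 0.12 (main values 1.70, 1.77 and 0.49), and with totals without the abundant RNAs Gm26448 was at 1.38 and Gm25835 at 0.17. The other values under these scalings stayed inside their main intervals, as did all 8 with a pseudocount of 1 and Gm22988 with its copies added. Each scaling shifts all RNAs alike, so staying inside reflects the width of the interval, which is widest at few reads. The number of the 8 above 1.4-fold was 6 or 5 under every alternative but read counts not scaled to library totals, which gave 7 and were added after seeing the data. The share of all RNAs above 1.4-fold was 24.6% with TMM and 26.8% without the abundant RNAs, and 70.1% on counts not scaled (main 44.2%). The median log2 ratio of the 68 other snoRNAs (0.90) was 0.54 with TMM and 1.11 with at least 100 reads. Among host genes, TMM put Rpsa at -0.036, Slc25a3 at 0.55, Eif4a1 at 0.46 and Eif4g2 at 0.030. Scaling shifts a snoRNA and its host alike, so the differences between them are the same under it. Depth limits Gm22486 and Gm24494, with 40 and 22 reads in both libraries together.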
